A study of Mus musculus with 14 samples.

Results

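Microvilli are finger-like protrusions of the apical membrane, each built around a bundle of actin filaments, and on absorptive gut epithelium they stand side by side as the brush border. Villin, espin and plastin bundle the actin core, myosin-1a and ezrin tie it to the membrane, and enzymes such as aminopeptidase N sit on its surface. Ezrin and villin also mark the apical side of the glandular stomach lining, where ezrin is best known from the microvilli of acid-secreting parietal cells. The genes described here are Vil1, Espn, Myo1a, Ezr, Cobl, Cdh17, Anpep and Prom1, chosen by symbol as microvillus, lateral or apical membrane genes of gut epithelium. All 8 were found among the 22798 genes of the table, and all 8 were among the 12694 genes tested, which had an FPKM (a fragment count scaled by transcript length and library total) of at least 1 in at least 3 of 14 libraries.

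Mouse stomach epithelium at E14.5 was profiled by RNA-seq in 4 groups. The libraries labelled GATA4 knock out came from the hindstomach of G4 cKO mutants (n = 5, numbered 1 to 5). They were set against hindstomach of G4 cKO controls, labelled wild type (n = 3, numbered 2, 3 and 4). The libraries labelled GATA4 knock in came from the forestomach of G4 cKI mutants (n = 3, numbered 1, 2 and 4), and their controls from the forestomach of G4 cKI controls, also labelled wild type (n = 3, numbered 2, 3 and 5). The hindstomach carries a glandular, columnar lining and the forestomach a stratified squamous one, and GATA4 is a DNA-binding factor of the developing gut. The labels give neither the Cre driver, nor the deleted exons, nor the knock-in construct, nor the genotype of the controls beyond the name of their cross. The controls of the 2 regions belong to different crosses, so region and cross cannot be told apart in any comparison between them. The labels do not say whether libraries of a group came from separate animals, so a p-value here reflects only how much these samples vary, possibly for technical reasons.

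Gata4 itself was measured first, as the check of the labels. It had 16.9, 19.4, 13.0, 32.1 and 59.6 FPKM in the libraries labelled knockout 1 to 5, against 65.7, 61.5 and 64.9 FPKM in hindstomach controls. The library labelled knockout 5 therefore stood at 93.1% of the control mean, and the difference over all 5 libraries was not called (log2 fold change -1.37, SE 0.47, limma adjusted p = 0.0672). The libraries labelled knock-in had 0.402, 0.319 and 1.27 FPKM, against 4.50, 1.33 and 0.573 FPKM in forestomach controls, which goes against their label. Whether the table counts a knock-in transcript under this gene is not stated in the labels. Columnar gastric markers summed to 209 to 576 FPKM in libraries labelled knockout, against 2032 to 6413 FPKM in hindstomach controls, and squamous markers to 66.0 to 269 FPKM in libraries labelled knock-in, against 275 to 2019 FPKM in forestomach controls. In hindstomach controls Cym alone had 1776 to 5947 FPKM. Of the 8 columnar markers 6 were called lower in the knockout comparison, where 6.28% of all tested genes were. Gkn3 and Tff2 reached 1 FPKM only in hindstomach controls, and Pgc only there and in the library labelled knockout 5. They passed the filter through the group where they are high, so their calls add no support to this count. Mean Sox2 and Barx1 were higher in libraries labelled knockout, at 137 and 7.92 FPKM, against 73.6 and 4.6 FPKM in hindstomach controls. Columnar markers summed to 236 to 281 FPKM in libraries labelled knock-in, most of it Sox2, against 101 to 146.5 FPKM in forestomach controls. Squamous markers summed to 31.1 to 94.8 FPKM in libraries labelled knockout, against 18.6 to 25.1 FPKM in hindstomach controls. The 6 epithelial markers summed to 454 to 883 FPKM in libraries labelled knockout, against 1120 to 1352 FPKM in hindstomach controls, with no overlap, and to 505 to 852 FPKM in libraries labelled knock-in, against 394 to 700 FPKM in forestomach controls. The part of the lower epithelial sum in the knockout comparison was not tested beyond the levels relative to Epcam given below. Markers of intestinal epithelium stayed between 0 and 6.53 FPKM in all 14 libraries. They summed to 2.69 to 6.53 FPKM in hindstomach controls and 0 to 1.245 FPKM in libraries labelled knockout. In libraries labelled knock-in they summed to 0.2445 to 0.628 FPKM, and in forestomach controls to 0.2935 to 0.967 FPKM. The libraries also differed in the slope of expression on transcript GC content, which spanned -0.57 to 0.49 per 10% GC in libraries labelled knockout, against 0.56 to 0.61 in hindstomach controls, and -0.84 to -0.09 in libraries labelled knock-in, against -0.61 to 0.82 in forestomach controls. These axes run along with several comparisons below, and in bulk RNA fewer cells of a type and less RNA per cell cannot be told apart.

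Promoter windows from RefSeq (GRCm38.p6, 250 bases before a transcription start) were found for 7 of the 8 genes, with 11 windows in all, and Cdh17 is named only. The windows were searched on both strands for the GATA motif, the letters GATA with A or T before them and A or G after them, since GATA4 is the factor the study manipulated. The motif occurred in the single windows of Vil1 and Myo1a, in the second of the 2 Cobl windows with 3 matches, and in the second of the 2 Prom1 windows. None of the 3 Espn windows and neither the Ezr nor the Anpep window held it. Across all 32851 windows of the same length 26.5% held at least 1 match, so its presence is common. No window of these genes held the HNF4 motif as CAAAGTCCA or as CAAAGGTCA, or the TATA box as TATAAA, which occurred in 0.807% and 12.4% of all windows. Vil1 also held a CArG box, the element bound by serum response factor, 73 to 64 bases before its start and 2 bases from the GATA match. That element occurred in 1.47% of all windows. The windows of 3 genes that fell in the knockout comparison, 2 with a match and 1 without, and the window with 3 matches of Cobl, which rose, are printed 5′ to 3′ on the strand of the gene, with motif matches in capitals. Their positions are chr1:74409134-74409383 on the plus strand for Vil1, chr10:127705006-127705255 on the plus strand for Myo1a, chr7:79848211-79848460 on the minus strand for Anpep and chr11:12412141-12412390 on the minus strand for the second Cobl start.
Vil1: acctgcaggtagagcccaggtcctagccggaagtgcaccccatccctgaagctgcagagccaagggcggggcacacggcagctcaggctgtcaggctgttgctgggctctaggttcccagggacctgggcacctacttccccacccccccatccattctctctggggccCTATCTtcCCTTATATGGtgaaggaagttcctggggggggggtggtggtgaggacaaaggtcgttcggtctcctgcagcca
Myo1a: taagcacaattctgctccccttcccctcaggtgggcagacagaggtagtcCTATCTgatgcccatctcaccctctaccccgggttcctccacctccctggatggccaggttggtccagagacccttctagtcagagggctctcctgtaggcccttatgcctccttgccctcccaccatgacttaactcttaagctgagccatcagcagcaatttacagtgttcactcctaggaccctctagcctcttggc
Anpep: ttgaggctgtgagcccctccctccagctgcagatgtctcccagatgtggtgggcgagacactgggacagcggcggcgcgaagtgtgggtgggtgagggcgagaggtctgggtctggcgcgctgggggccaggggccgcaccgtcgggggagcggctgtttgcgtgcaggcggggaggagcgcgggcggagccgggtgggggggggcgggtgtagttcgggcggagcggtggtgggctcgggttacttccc
Cobl: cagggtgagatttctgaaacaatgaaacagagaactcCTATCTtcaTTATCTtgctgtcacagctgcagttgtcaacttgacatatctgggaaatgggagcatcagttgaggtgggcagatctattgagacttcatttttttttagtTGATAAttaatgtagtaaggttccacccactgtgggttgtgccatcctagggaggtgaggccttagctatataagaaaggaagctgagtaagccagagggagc
A match is a description of these letters and not a measured binding site. The GATA match of Vil1 lay 81 to 76 bases before the start and that of Myo1a 200 to 195 bases before it.

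In the knockout comparison the actin bundlers, the membrane tether, ezrin and the surface peptidase fell, while the actin nucleator and the cadherin rose. Anpep was 10.6-fold lower by the ratio of mean FPKM, Espn 10.8-fold, Myo1a 6.84-fold, Vil1 4.06-fold and Ezr 2.02-fold lower. Cobl was 2.08-fold and Cdh17 6.06-fold higher, the latter from a control mean of only 0.212 FPKM. Without the libraries labelled knockout Cdh17 would not have passed the filter of 1 FPKM in 3 libraries. Without the hindstomach controls neither would Vil1, Espn and Myo1a. Of the 8 genes 5 fell and 2 rose, where 6.28% and 6.96% of all tested genes fell and rose (limma, adjusted p under 0.05 over all tested genes). Vil1, Espn, Myo1a and Cdh17 passed the filter through the group where they are high. Their values thus add no support to the counts of this comparison. The median log2 fold change of the 8 was -1.39, against -0.08 over all genes tested. Rescaling the libraries to a common sum moved the median of all genes to 0.16 and the share of higher genes among all calls to 66.6%, against 52.6% as deposited, and the 7 genes called kept their direction. In 7 of the 8 the groups did not overlap, 5 of them lower, as for 24.9% of all genes, and 2 higher, as for 17.7%.

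**Figure D1:**
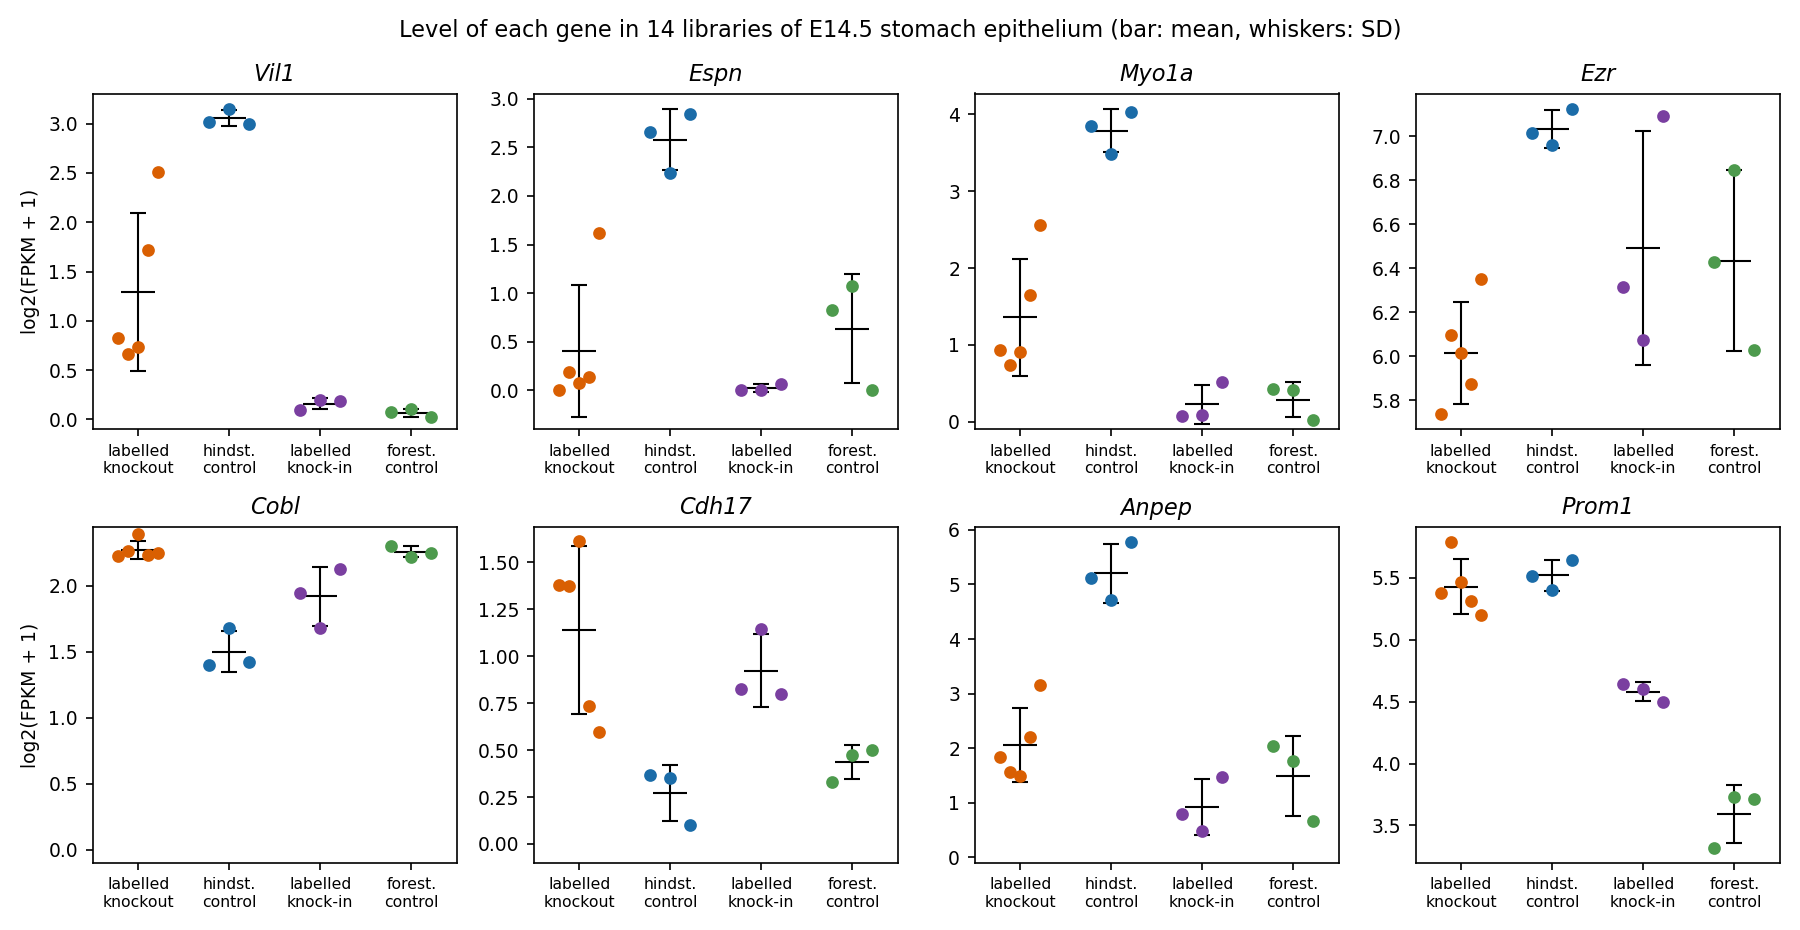
Level of each gene as log2(FPKM + 1) (vertical axis, scaled separately per panel) in the libraries labelled knockout (n = 5), hindstomach controls (n = 3), libraries labelled knock-in (n = 3) and forestomach controls (n = 3); points are libraries, bars group means and whiskers SD. Vil1, Espn, Myo1a and Anpep stand highest in hindstomach controls, Cobl lowest there, and Prom1 is near 43 to 45 FPKM on average in both hindstomach groups.

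Vil1 encodes villin, which bundles, caps and severs actin filaments. It had 0.778, 0.584, 0.665, 2.29 and 4.69 FPKM in the libraries labelled knockout 1 to 5, against 7.08, 7.88 and 7.01 FPKM in hindstomach controls. Libraries 1 to 3 were lowest, 4 and 5 lay between them and the controls, and the groups did not overlap. Vil1 fell, with a log2 fold change of -1.76 (SE 0.35, limma adjusted p = 0.00988). In the forestomach it was near 0 in both groups, with 0.0703, 0.144 and 0.141 FPKM in libraries labelled knock-in and 0.0503, 0.0767 and 0.0184 FPKM in forestomach controls. The log2 difference there was 0.09 (95% interval -0.76 to 0.95, adjusted p = 0.863), and the groups overlapped.

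Espn encodes espin, a bundling protein that lengthens actin bundles. It had 0, 0.138, 0.0523, 0.102 and 2.06 FPKM in the libraries labelled knockout 1 to 5, against 5.33, 3.69 and 6.19 FPKM in hindstomach controls. Libraries 1 to 4 were at or near 0, and the library labelled knockout 5 stood apart from them but still below the lowest control. Espn fell, with a log2 fold change of -2.18 (SE 0.35, limma adjusted p = 0.00348). Libraries labelled knock-in had 0, 0 and 0.0485 FPKM, against 0.772, 1.10 and 0 FPKM in forestomach controls, where control 5 was listed at 0. Those groups overlapped and the difference was not called (-0.61, 95% interval -1.47 to 0.25, adjusted p = 0.241). The Espn transcript has 62.1% GC, higher than in 99.0% of tested genes, so it lies at the end of the GC axis on which the libraries differ. A fit with the GC slope as a covariate is given below. The slope came from the same libraries, so that fit is no independent check.

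Myo1a encodes myosin-1a, a motor that tethers the actin core to the surrounding membrane. It had 0.907, 0.662, 0.876, 2.14 and 4.92 FPKM in the libraries labelled knockout 1 to 5, against 13.5, 10.2 and 15.3 FPKM in hindstomach controls. The order of these libraries was close to that of Vil1, with 4 and 5 highest, and the groups did not overlap. The log2 fold change of Myo1a, which fell, was -2.43 (SE 0.36, limma adjusted p = 0.00218). In the forestomach it had 0.0488, 0.0570 and 0.434 FPKM in libraries labelled knock-in and 0.338, 0.332 and 0.0171 FPKM in forestomach controls, with overlapping groups (difference -0.06, 95% interval -0.94 to 0.81, adjusted p = 0.910).

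Ezr encodes ezrin, which links actin to apical membrane proteins. Its level was high in every library. It had 52.3, 67.5, 63.7, 57.6 and 80.6 FPKM in the libraries labelled knockout 1 to 5, against 128, 123 and 139 FPKM in hindstomach controls. All 5 lay below the lowest control, so the level of Ezr dropped to 49.5% of the control mean but was not lost. The log2 fold change of Ezr, which fell, was -1.02 (SE 0.24, limma adjusted p = 0.0188). Libraries labelled knock-in had 78.5, 66.4 and 136 FPKM, against 85.2, 114 and 64.2 FPKM in forestomach controls. Those ranges overlapped and the difference was 0.06 (95% interval -0.52 to 0.64, adjusted p = 0.870).

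Cobl encodes cordon-bleu, which nucleates actin filaments at the base of microvilli. It had 3.68, 3.79, 4.25, 3.70 and 3.75 FPKM in the libraries labelled knockout 1 to 5, against 1.63, 2.21 and 1.68 FPKM in hindstomach controls. The 5 libraries lay close together, including the library labelled knockout 5, and all were above every control. Cobl rose, with a log2 fold change of 0.77 (SE 0.15, limma adjusted p = 0.00903). Its forestomach values were 2.86, 2.20 and 3.36 FPKM in libraries labelled knock-in, against 3.93, 3.66 and 3.76 FPKM in forestomach controls. Those groups did not overlap, but the difference was not called (-0.34, 95% interval -0.71 to 0.03, adjusted p = 0.152).

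Cdh17 encodes liver-intestine cadherin, a calcium-dependent adhesion protein of the lateral membrane rather than of the microvillus itself. It had 1.60, 1.59, 2.06, 0.664 and 0.510 FPKM in the libraries labelled knockout 1 to 5, against 0.288, 0.277 and 0.0717 FPKM in hindstomach controls. Libraries 4 and 5 were nearest to the controls, and the groups did not overlap. Cdh17 rose, with a log2 fold change of 0.87 (SE 0.22, limma adjusted p = 0.0269), at levels where log2(FPKM + 1) understates a fold change. It reached 1 FPKM only in the libraries labelled knockout 1, 2 and 3 and the library labelled knock-in 2. It thus passed the filter through the group where it is called higher. Libraries labelled knock-in had 0.771, 1.21 and 0.741 FPKM, against 0.259, 0.389 and 0.413 FPKM in forestomach controls. Those groups did not overlap either, and the difference was not called (0.49, 95% interval -0.05 to 1.03, adjusted p = 0.158).

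Anpep encodes aminopeptidase N, a zinc peptidase that trims peptides at the microvillus surface. It had 2.58, 1.97, 1.81, 3.60 and 7.90 FPKM in the libraries labelled knockout 1 to 5, against 33.8, 25.2 and 54.1 FPKM in hindstomach controls. The highest of the 5, at 7.90, lay far below the lowest control, at 25.2, and libraries 4 and 5 again stood above 1 to 3. The log2 fold change of Anpep, which fell, was -3.16 (SE 0.43, limma adjusted p = 0.00131). Libraries labelled knock-in had 0.733, 0.391 and 1.78 FPKM, against 3.09, 2.41 and 0.585 FPKM in forestomach controls, with overlap (difference -0.57, 95% interval -1.62 to 0.47, adjusted p = 0.354). Liver and pancreas, whose cells also carry Anpep, border the hindstomach, and liver markers summed to 7.28 to 41.4 FPKM in libraries labelled knockout, against 49.8 to 100.1 FPKM in hindstomach controls. Mean Apoa1, Ttr and Afp were lower in libraries labelled knockout. Other liver markers were higher there, with Serpina1a at 4.41 against 0.595 FPKM, Alb at 0.296 against 0.129 FPKM and Fgb near 0 in both. Pancreas markers summed to 0.213 to 8.10 FPKM in libraries labelled knockout, against 19.3 to 56.9 FPKM in hindstomach controls, with Ptf1a and Ins2 listed at 0 in both. In hindstomach controls most of that sum was Clps, with a mean of 37.1 FPKM, where Cpa1 and Cel averaged 0.0674 and 0.00653 FPKM. The part of liver or pancreas cells in the values of Anpep was not tested.

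Prom1 encodes prominin-1, a cholesterol-binding membrane protein that gathers on protrusions of the apical surface. It had 40.7, 54.3, 43.2, 38.8 and 35.8 FPKM in the libraries labelled knockout 1 to 5, against 44.6, 41.3 and 49.1 FPKM in hindstomach controls. The groups overlapped, and the difference was -0.09 on the log2 scale (95% interval -0.41 to 0.23, limma adjusted p = 0.646). In the forestomach Prom1 behaved otherwise, with 24.0, 23.3 and 21.5 FPKM in libraries labelled knock-in, against 9.001, 12.3 and 12.2 FPKM in forestomach controls. Those groups did not overlap and Prom1 rose, with a log2 fold change of 0.99 (SE 0.17, limma adjusted p = 0.00758).

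Exact two-sided permutation tests of each gene gave p = 0.0357 for 7 of the 8 in the knockout comparison, the smallest value that 56 splits allow, and 0.571 for Prom1. In the forestomach the smallest value that 20 splits allow is 0.1, which Cobl, Cdh17 and Prom1 reached. Each of Anpep, Myo1a and Espn remained called under all 17 alternative settings tried in the knockout comparison. Without hindstomach control 2 or hindstomach control 4 the members called dropped to 3 lower and 0 higher in each case, with Vil1 at adjusted p = 0.0501 and 0.0567, Ezr at 0.0791 and 0.111, Cobl at 0.0638 and 0.0686 and Cdh17 at 0.0936 and 0.149. Cdh17 lost its call under 8 of 17 settings, which include leaving out hindstomach control 3 or the library labelled knockout 1, 2 or 3. With the GC slope as a covariate the decrease of Anpep was -2.28 (adjusted p = 0.000447), of Myo1a -1.81 (0.00273), of Espn -1.56 (0.00611) and of Vil1 -1.27 (0.0287), all called, whereas Ezr (-0.64, adjusted p = 0.0559) and Cdh17 (0.54, adjusted p = 0.102) were not. Relative to Epcam, Vil1 (-1.37, adjusted p = 0.0713) and Ezr (-0.63, adjusted p = 0.161) were not called.

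**Figure D2:**
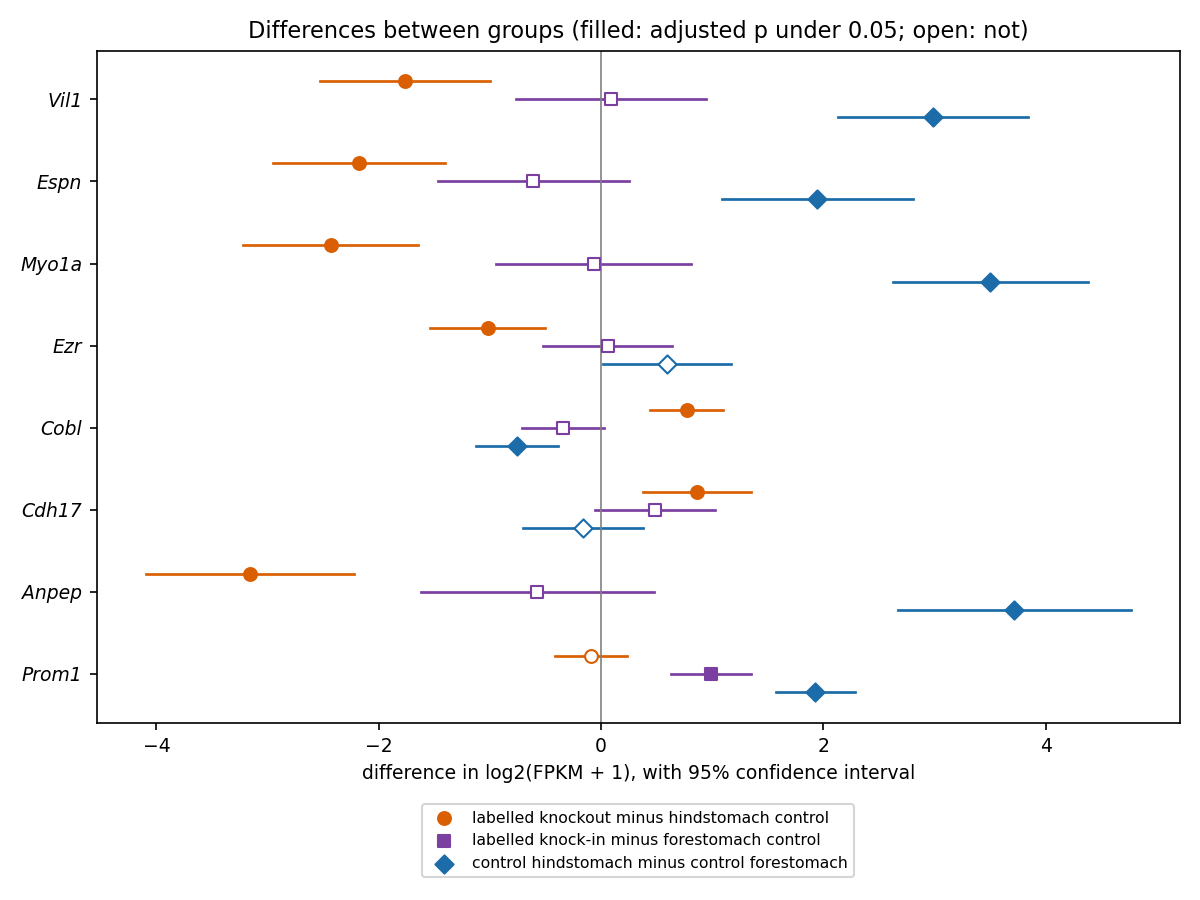
Difference in log2(FPKM + 1) (horizontal axis) with its 95% confidence interval for each gene (vertical axis) in 3 comparisons; filled symbols passed an adjusted p under 0.05 and open symbols did not. Anpep shows the lowest knockout difference (-3.16) and Prom1 is the only filled symbol in the knock-in comparison (0.99).

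The 5 libraries labelled knockout were not alike. Library 5 held 64.1% of the control mean of Vil1, 40.7% of Espn, 37.9% of Myo1a and 20.9% of Anpep, together with 93.1% of Gata4. Library 4 held 31.3% of Vil1, 2.01% of Espn, 16.4% of Myo1a and 9.54% of Anpep, with 50.1% of Gata4. Libraries 1 to 3 held 7.98% to 10.6% of Vil1 and 20.3% to 30.2% of Gata4. Library 5 was thus the highest of the 5 for Gata4, Vil1, Espn, Myo1a, Anpep and Ezr, and the lowest for Cdh17 and Prom1. The GC slope had nearly this order too, at 0.49 in library 5 and 0.09 in library 4 against -0.57 to -0.42 in libraries 1 to 3, so the part of either in this order was not tested. For Ezr the 5 libraries spanned only 40.2% to 61.9% of the control mean, and for Prom1 79.7% to 121%.

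**Figure D3:**
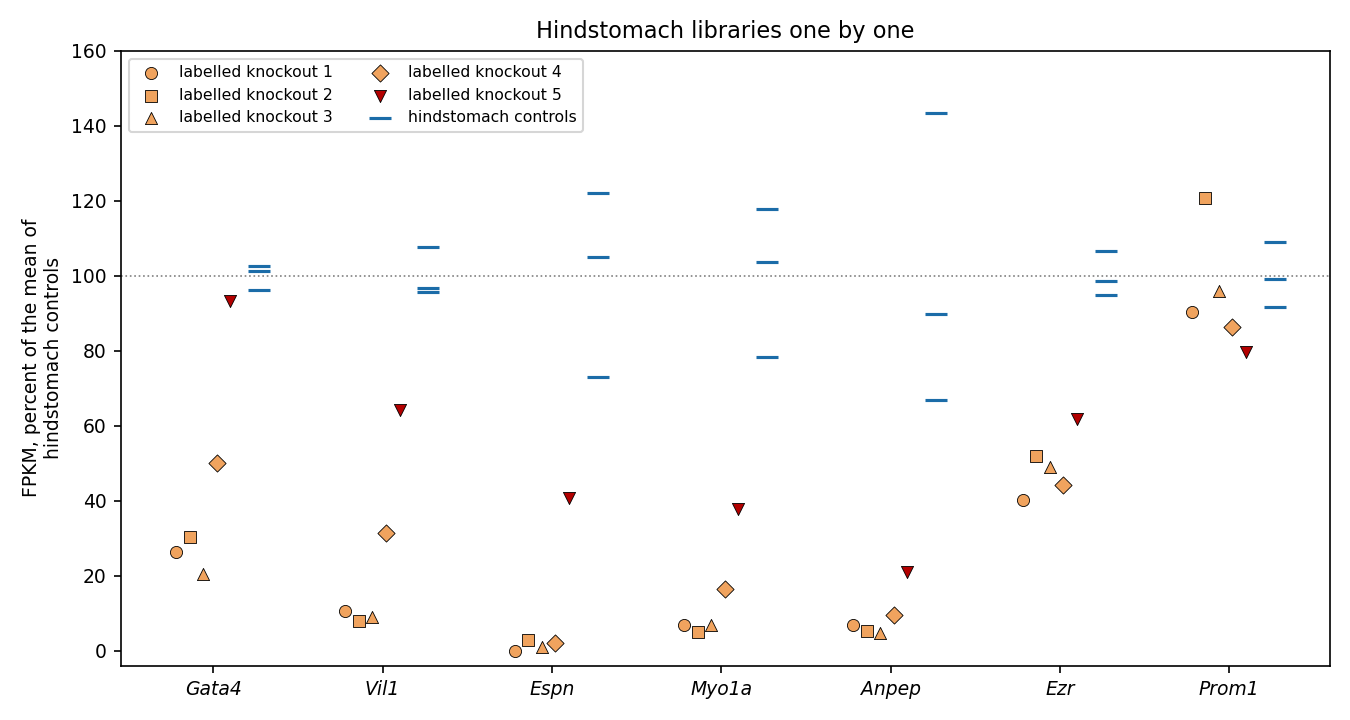
FPKM of each library labelled knockout (symbols, 1 shape per library, library 5 in dark red) and of each hindstomach control (blue bars) as a percent of the mean of hindstomach controls (vertical axis) for Gata4 and 6 of the genes. Library 5 reaches 93.1% for Gata4, 64.1% for Vil1 and 20.9% for Anpep, above the other 4 libraries labelled knockout for each of these.

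Between control regions, the hindstomach was higher for villin, espin, myosin-1a, aminopeptidase N and prominin-1 and lower for cordon-bleu. Mean Vil1 was 7.32 ± 0.482 FPKM in hindstomach controls and 0.0485 ± 0.0292 FPKM in forestomach controls (SD, n = 3 each). Mean Myo1a was 13.0 ± 2.60 FPKM in hindstomach controls and 0.229 ± 0.183 FPKM in forestomach controls, a 56.8-fold ratio. Mean Anpep was 37.7 ± 14.8 FPKM in hindstomach controls and 2.03 ± 1.295 FPKM in forestomach controls, an 18.6-fold ratio. Of the 8 genes 5 were called higher and 1 lower in the hindstomach, where 9.70% and 10.7% of all tested genes were. Without the hindstomach controls, the group where they are high, Vil1, Espn and Myo1a would not have passed the filter. Their values thus add no support to the counts between regions. The log2 differences were 3.72 for Anpep (SE 0.48, limma adjusted p = 0.000209), 3.504 for Myo1a (SE 0.40, 8.74e-05), 2.99 for Vil1 (SE 0.39, 0.000233), 1.95 for Espn (SE 0.40, 0.00405) and 1.93 for Prom1 (SE 0.17, 1.08e-05). Cobl was lower in the hindstomach, at 1.84 ± 0.318 FPKM, against 3.78 ± 0.140 FPKM in the forestomach (log2 difference -0.76, SE 0.17, adjusted p = 0.00688). Mesenchyme markers summed to 52.6 to 165 FPKM in hindstomach controls and 644 to 1094 FPKM in forestomach controls. The 6 epithelial markers summed to 1120 to 1352 FPKM in hindstomach controls and 394 to 700 FPKM in forestomach controls. The part of these sums in the regional differences was not tested beyond levels relative to Epcam.

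Ezr and Cdh17 were not called between the control regions. Ezr averaged 130 ± 7.79 FPKM in hindstomach controls and 87.9 ± 25.1 FPKM in forestomach controls (log2 difference 0.60, 95% interval 0.02 to 1.17, limma adjusted p = 0.139). Its libraries did not overlap. The regions did not overlap for 6 genes with the hindstomach higher, as for 23.0% of all genes, and for 1, Cobl, with it lower, as for 18.4%. Cdh17 averaged 0.212 ± 0.122 FPKM in hindstomach controls and 0.354 ± 0.0828 FPKM in forestomach controls, with overlap (-0.16, 95% interval -0.70 to 0.38, adjusted p = 0.670). Exact permutation gave 0.1, the smallest value possible, for 7 of the 8 genes and 0.3 for Cdh17. Cobl lost its call when the compared groups were fitted alone (adjusted p = 0.0561). Taking levels relative to Epcam ended the call of Espn (0.89, adjusted p = 0.145).

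The libraries labelled knockout and the forestomach controls were also set side by side, although region, cross and genotype differ together there. Prom1 averaged 42.5 ± 7.07 FPKM in libraries labelled knockout and 11.2 ± 1.86 FPKM in forestomach controls, and was called higher (log2 difference 1.84, SE 0.15, limma adjusted p = 1.12e-05). Vil1 was also called higher, at 1.80 ± 1.76 FPKM, against 0.0485 ± 0.0292 FPKM in forestomach controls (1.22, SE 0.35, adjusted p = 0.0376). These 2 of 8 genes compare with 8.34% of all genes called higher, and no member was called lower, against 5.55% of all genes. Cobl averaged 3.83 ± 0.237 FPKM in libraries labelled knockout and 3.78 ± 0.140 FPKM in forestomach controls, with overlap (0.01, 95% interval -0.31 to 0.34, adjusted p = 0.963). Anpep, Espn and Ezr also overlapped between these groups and were not called. Myo1a (1.07, adjusted p = 0.0687) and Cdh17 (0.70, adjusted p = 0.055) did not overlap and were not called. The groups did not overlap for 4 genes with libraries labelled knockout higher, as for 11.5% of all genes, and for 0 genes with them lower, as for 6.81% (18.3% either way). Of all genes called here 60% were higher, and 80.3% after rescaling to a common sum. The call of Vil1 was lost without forestomach control 2 (adjusted p = 0.120), without forestomach control 3 (0.0885) or without the library labelled knockout 4 (0.0766), and when the 2 groups were fitted alone (0.134). With the GC slope as a covariate 5 of the 8 genes were called higher, but calls over all genes also increased, to 4604 of 12694, against 1764 without it.

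In the forestomach only Prom1 of the 8 genes was called in libraries labelled knock-in, 1 higher and 0 lower, where 2.62% and 3.22% of all tested genes were called. Groups did not overlap for Prom1 and Cdh17, both higher, as for 7.78% of all genes, and for Cobl, lower, as for 12.2%. The median log2 difference of the 8 was -0.0019, against -0.37 over all genes tested. Rescaling to a common sum moved the median of all genes to -0.04 and the share of higher genes among all calls to 76.5%, against 44.9% as deposited, and Prom1 remained called. Epcam, the epithelial adhesion molecule, moved in the same libraries, at 398 ± 49.8 FPKM in libraries labelled knock-in and 190 ± 59.8 FPKM in forestomach controls (log2 difference 1.11, SE 0.27, limma adjusted p = 0.0393). It was the only 1 of the 6 epithelial markers called there, and the median log2 difference of the 6 was 0.06. Mean Cdh1 and Cldn7 were also higher in libraries labelled knock-in. Mean Esrp1, Krt8 and Krt18 were lower, with Krt8 at 32.9 FPKM, against 94.9 FPKM in forestomach controls. Mesenchyme markers summed to 188 to 528 FPKM in libraries labelled knock-in, against 644 to 1094 FPKM in forestomach controls. Of the 9 markers 2, Col1a1 and Vim, were called lower, where 3.22% of all tested genes were. Per 100 FPKM of Epcam, Prom1 stood at 5.59, 6.86 and 5.10 FPKM in libraries labelled knock-in and at 7.46, 5.49 and 5.40 FPKM in forestomach controls. These ratios overlapped, and with all levels taken relative to Epcam the difference of Prom1 was -0.12 (adjusted p = 0.665). In the hindstomach the same ratio was 16.0, 16.6, 10.9, 19.1 and 11.6 FPKM in the libraries labelled knockout 1 to 5, against 10.9, 11.8 and 12.6 FPKM in hindstomach controls. When the forestomach groups were fitted alone, Prom1 was not called (adjusted p = 0.283), and neither was any other gene.

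**Figure D4:**
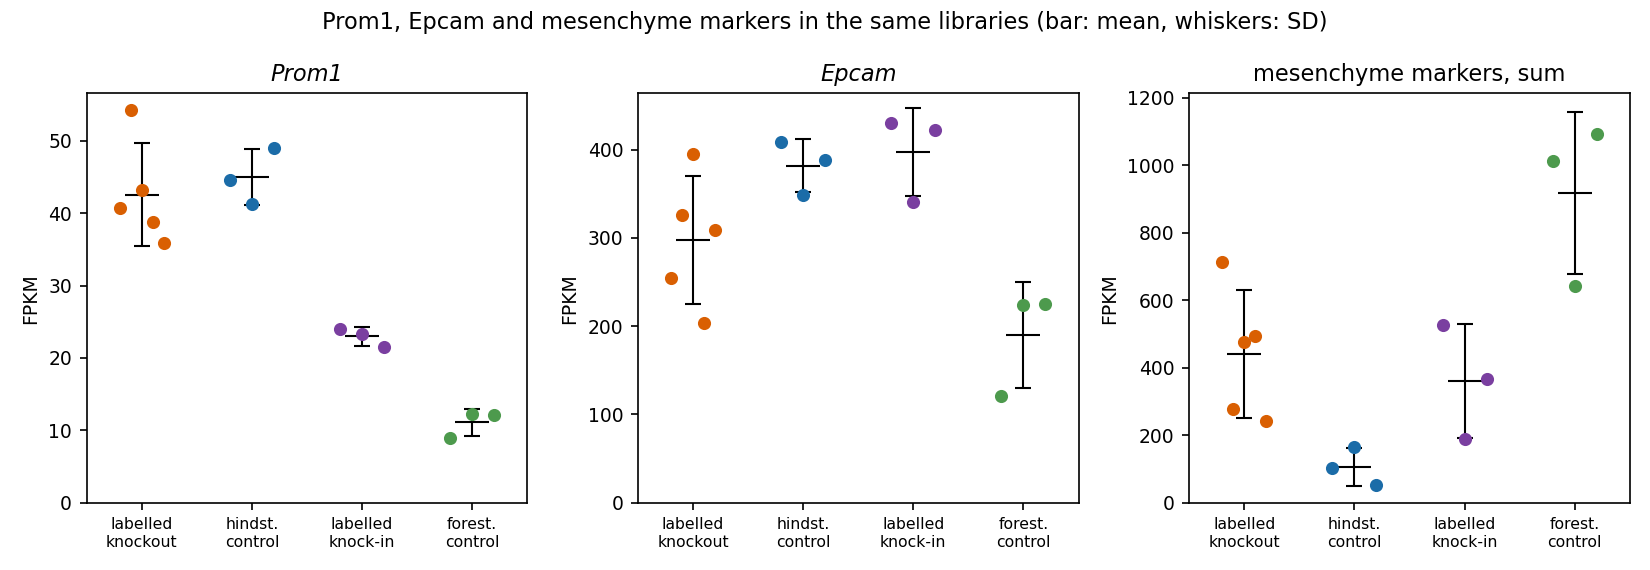
FPKM (vertical axis, from 0) of Prom1, of Epcam and of the summed mesenchyme markers in the libraries labelled knockout, hindstomach controls, libraries labelled knock-in and forestomach controls; points are libraries, bars means and whiskers SD. Prom1 and Epcam are both higher in libraries labelled knock-in (means 22.97 and 398 FPKM) than in forestomach controls (11.2 and 190 FPKM), where mesenchyme markers are higher.

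The difference between libraries labelled knockout and hindstomach controls was compared directly with that between libraries labelled knock-in and forestomach controls, a contrast by label only, since Gata4 was not higher in the libraries labelled knock-in. The first minus the second was called for 5 of the 8 genes, 1 higher and 4 lower, where 7.62% and 3.19% of all tested genes were. Vil1 and Myo1a passed the filter through hindstomach controls, the group where they are high, so their calls add no support to this count. It was -2.58 for Anpep (SE 0.65, limma adjusted p = 0.0241), -2.37 for Myo1a (SE 0.54, 0.0162), -1.86 for Vil1 (SE 0.53, 0.0417), -1.08 for Prom1 (SE 0.22, 0.00996) and 1.11 for Cobl (SE 0.23, 0.00971). For Espn (-1.57, adjusted p = 0.0849), Ezr (-1.08, 0.0768) and Cdh17 (0.38, 0.664) it was not called. Of all calls of this difference 70.5% were higher, and 51.6% after quantile normalization. For Vil1 the call was lost under 15 of 21 alternative settings, among them leaving out any library except those labelled knockout 4 and 5. It was lost for Anpep under 4 of 21, among them leaving out hindstomach control 2 (adjusted p = 0.0577) or 4 (0.0806). For Myo1a it was lost under 3 of 21, among them leaving out hindstomach control 4 (0.0544). Relative to Epcam no member was called lower for this difference, and the value of Prom1 turned to 0.42.

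The rest of the microvillus machinery was described from lists by role, 66 genes in all with 7 of the 8 genes among them, and 46 passed the level filter. Without the 7, 39 genes were tested, of which 9 fell and 4 rose in the knockout comparison, where 6.28% and 6.96% of all tested genes did. The 4 that rose are thus close to that background. Between control regions 14 of the 39 were higher and 9 lower in the hindstomach, where 9.70% and 10.7% of all tested genes were. Eps8l3, Ggt1 and Baiap2l2 are among the 9 that fell and the 14 that were higher. Eps8l3 and Ggt1 reached 1 FPKM only in hindstomach controls, and Baiap2l2 only there and in the library labelled knockout 5. They passed the filter through the group where they are high, so their calls add no support to these counts. The median log2 difference of the 39 was -0.37 in the knockout comparison, against -0.08 over all genes tested, and 0.35 between regions, against 0.14 over all genes tested. In libraries labelled knock-in 3 rose and 3 fell, against forestomach controls, where 2.62% and 3.22% of all tested genes did. In the knockout comparison Pls3, Rdx, Eps8l3 and Muc1 remained called under all 17 alternative settings. By contrast Msn lost its call under 9 of them, Myo1d under 6, Eps8l2 under 8, Baiap2l2 under 9, Myh9 under 6 and Rnpep under 11, each time without hindstomach control 2 or 4 among others, and no called gene changed direction. Relative to Epcam, the calls of Baiap2l1, Cobll1, Ggt1 and Cdh16 were lost too. In libraries labelled knock-in, Muc1 and Cobll1 lost their calls relative to Epcam, when the forestomach groups were fitted alone, and without forestomach control 2 or the library labelled knock-in 1, and Cobll1 also without the library labelled knock-in 2.

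**Figure D5:**
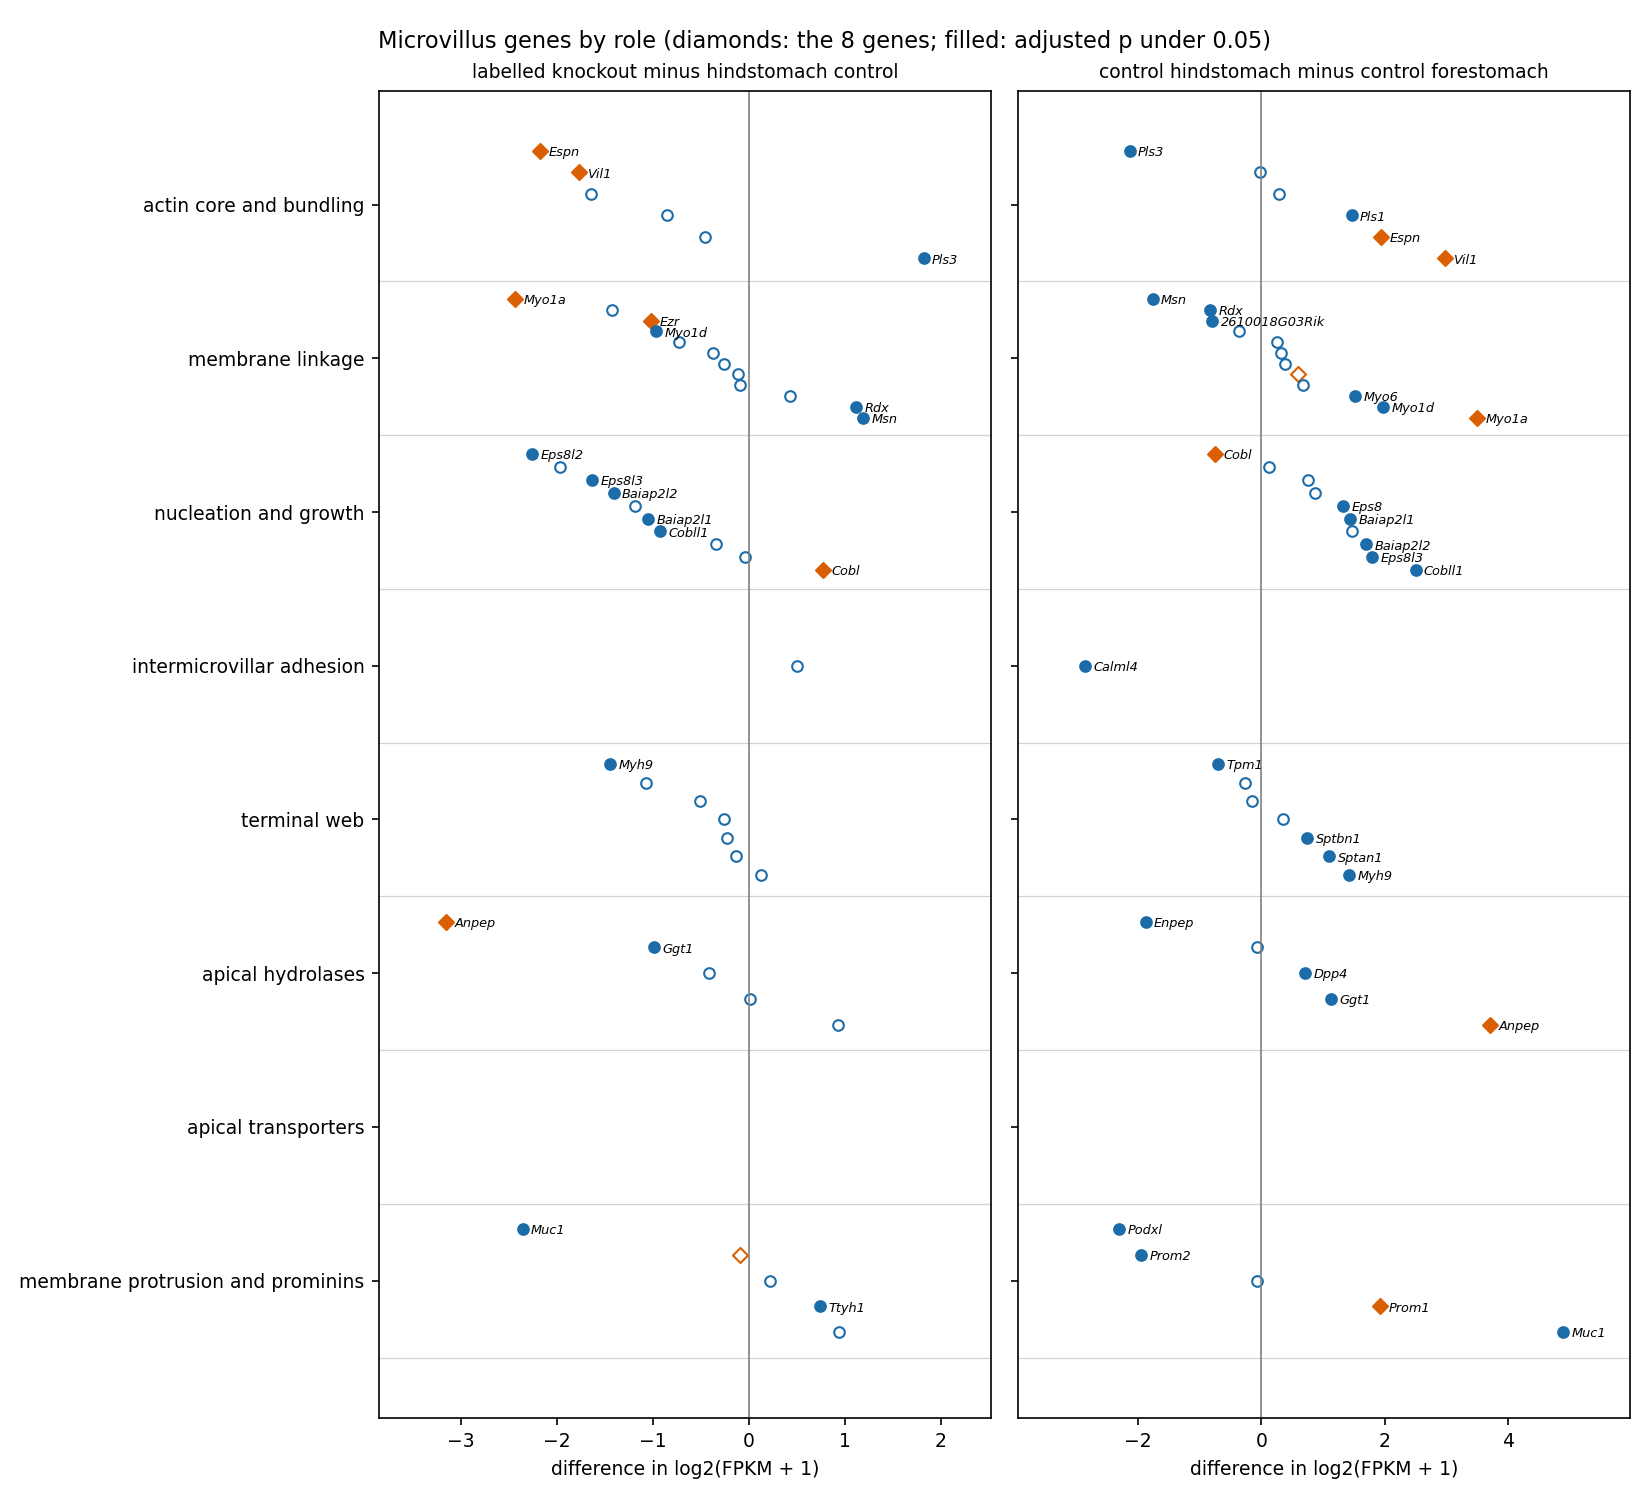
Difference in log2(FPKM + 1) (horizontal axes) of every tested microvillus gene, grouped by role (rows), in libraries labelled knockout minus hindstomach controls and in control hindstomach minus control forestomach; diamonds are the genes described one by one, circles the others, and filled symbols passed an adjusted p under 0.05. Pls3, Msn, Rdx and Cobl lie right of 0 in the knockout panel (1.82, 1.19, 1.12 and 0.77) and left of 0 in the regional panel (-2.14, -1.76, -0.83 and -0.76).

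Among the actin bundlers, 6 of 7 were tested, and Espn and Vil1 fell while Pls3 rose. Over all tested genes 6.28% fell and 6.96% rose in the knockout comparison. Espn and Vil1 passed the filter through hindstomach controls, the group where they are high, so their calls add no support to this count. Pls3 encodes T-plastin, another member of the plastin family. It had 51.4, 42.7, 49.7, 41.0 and 23.8 FPKM in the libraries labelled knockout 1 to 5, against 10.9, 13.0 and 8.65 FPKM in hindstomach controls (log2 difference 1.82, SE 0.25, limma adjusted p = 0.00132). Pls1, which encodes the plastin of microvilli, averaged 12.8 ± 2.10 FPKM in libraries labelled knockout and 17.8 ± 3.24 FPKM in hindstomach controls (-0.45, adjusted p = 0.136). In the forestomach Pls1 had 26.4, 29.3 and 21.9 FPKM in libraries labelled knock-in, against 3.64, 7.97 and 6.40 FPKM in forestomach controls, and rose (1.98, SE 0.24, adjusted p = 0.00114). Per 100 FPKM of Epcam, Pls1 stood at 6.14, 8.62 and 5.19 FPKM in libraries labelled knock-in and at 3.01, 3.56 and 2.84 FPKM in forestomach controls, so that the groups did not overlap in this ratio either. Its call was lost only when the forestomach groups were fitted alone. Villin's relatives Vill, Gsn, Capg and Svil were tested and none was called in the knockout comparison, while Gsn, which encodes gelsolin, fell in libraries labelled knock-in (-2.59, adjusted p = 0.0396). Gsn lost this call under 6 of 14 settings, among them leaving out forestomach control 2 or 3 or the library labelled knock-in 1 or 2.

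Among the 12 membrane linkers, all tested, Ezr, Myo1a and Myo1d fell and Rdx and Msn rose. The shares over all tested genes were 6.28% and 6.96%. Myo1a passed the filter through hindstomach controls, the group where it is high, so its call adds no support to this count. Radixin and moesin are the ezrin relatives, and moesin is the form typical of mesenchyme, endothelium and leukocytes. Rdx had 99.3, 98.0, 104, 86.1 and 67.2 FPKM in the libraries labelled knockout 1 to 5, against 41.4, 41.9 and 38.9 FPKM in hindstomach controls (1.12, SE 0.19, limma adjusted p = 0.00395). Msn averaged 15.1 ± 6.62 FPKM in libraries labelled knockout and 5.85 ± 2.34 FPKM in hindstomach controls (1.19, SE 0.34, adjusted p = 0.0381). Mean Rdx exceeded mean Ezr in libraries labelled knockout, at 90.8 and 64.3 FPKM, and was below it in hindstomach controls, at 40.7 and 130 FPKM. Mesenchyme markers summed to 242 to 712 FPKM in libraries labelled knockout, against 52.6 to 165 FPKM in hindstomach controls. Of these 9 markers 7 rose, where 6.96% of all tested genes did. None of the 9 was at 0 in any group as a whole, and their part in the rise of Pls3, Msn and Rdx was not tested. Of the other class I myosins, Myo1c and Myo1e were not called in the knockout comparison, and Myo1d fell by 0.97 (adjusted p = 0.0233).

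Among 10 genes of actin nucleation and microvillus growth, all tested, 5 fell and Cobl alone rose. Over all tested genes 6.28% fell and 6.96% rose. The 5 that fell here were Eps8l2, Eps8l3, Baiap2l1, Baiap2l2 and Cobll1. Eps8l3, a relative of the capping and bundling protein Eps8, averaged 0.133 ± 0.191 FPKM in libraries labelled knockout and 2.53 ± 0.753 FPKM in hindstomach controls (-1.63, SE 0.16, limma adjusted p = 0.000153). It passed the filter only through hindstomach controls, the group where it is high. Baiap2l1, a membrane-bending adaptor, fell by 1.05 (adjusted p = 0.00805). Cobll1, the sequence relative of Cobl, went the other way from it. Cobll1 had 13.98, 11.7, 13.2, 12.3 and 15.7 FPKM in the libraries labelled knockout 1 to 5, against 25.3, 24.2 and 29.1 FPKM in hindstomach controls (-0.92, SE 0.14, adjusted p = 0.00243). Cobll1 was 2.50 higher on the log2 scale in control hindstomach than in control forestomach (adjusted p = 9.76e-07), where Cobl was lower. It also rose with the label knock-in (0.71, SE 0.16, adjusted p = 0.0297), but per 100 FPKM of Epcam it stood at 1.56, 2.04 and 1.63 FPKM in libraries labelled knock-in and 2.41, 1.88 and 1.95 FPKM in forestomach controls.

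Genes of the mature brush border were largely below the filter. Of 6 genes of intermicrovillar adhesion only Calml4 was tested, and it was not called in the knockout comparison (0.51, limma adjusted p = 0.282). Calml4 encodes a calmodulin-like protein of that complex. It averaged 3.85 ± 0.750 FPKM in hindstomach controls and 34.4 ± 6.62 FPKM in forestomach controls, lower in the hindstomach (-2.86, SE 0.40, adjusted p = 0.000337) under all 15 alternative settings. It averaged 13.1 ± 7.04 FPKM in libraries labelled knock-in and was called lower there than in forestomach controls (-1.48, adjusted p = 0.0498), a call lost under 10 of 14 settings, among them leaving out forestomach control 2 or 3 or the library labelled knock-in 1 or 2. Cdhr2, a protocadherin that joins microvillus tips, had 0.161, 0.109, 0.0380, 0.453 and 0.869 FPKM in the libraries labelled knockout 1 to 5, against 1.15, 1.18 and 0.879 FPKM in hindstomach controls. It was listed at 0 in all 6 forestomach libraries. None of the 6 apical transporters passed the filter, and the sodium-proton exchanger gene Slc9a3 was listed at 0 in all 14 libraries. Of 13 apical hydrolases 5 were tested, and Ggt1 fell beside Anpep, at 0.200 ± 0.302 FPKM in libraries labelled knockout and 1.33 ± 0.163 FPKM in hindstomach controls (-0.99, SE 0.18, adjusted p = 0.00588). Of all tested genes 6.28% fell. Ggt1 passed the filter only through hindstomach controls, the group where it is high. Enpep, which encodes another surface aminopeptidase, was not called in the knockout comparison (0.93, adjusted p = 0.0548) and was lower in control hindstomach than in control forestomach (-1.88, adjusted p = 0.00155). Of the aminopeptidase relatives of Anpep, Rnpep fell (-1.41, adjusted p = 0.0475), and Erap1, Lnpep and Npepps were not called in any of these comparisons.

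In the remaining groups, Muc1 encodes a transmembrane mucin of the apical surface. It had 5.66, 5.60, 5.51, 7.63 and 14.4 FPKM in the libraries labelled knockout 1 to 5, against 34.7, 38.3 and 52.5 FPKM in hindstomach controls, and fell by 2.36 (SE 0.31, limma adjusted p = 0.000936). In libraries labelled knock-in it had 3.57, 2.72 and 6.54 FPKM, against 0.340, 0.617 and 0.315 FPKM in forestomach controls, and rose (1.83, SE 0.34, adjusted p = 0.0142). Library 5 was again the highest of the 5 labelled knockout. Prom2, the relative of Prom1, was lower in control hindstomach than in control forestomach (-1.95, adjusted p = 0.0054), opposite to Prom1, and was not called in the knockout comparison (0.22, adjusted p = 0.652). Of the terminal web, the actomyosin layer under the microvilli, 1 of 7 genes was called in the knockout comparison, Myh9, which fell (-1.44, adjusted p = 0.0216). With 13.2% of all tested genes called either way, 1 of 7 is close to the background. Cdh16, the relative of Cdh17 with the same extracellular build, fell in the knockout comparison (-1.55, SE 0.27, adjusted p = 0.00492), and Cdh2, the cadherin typical of mesenchyme and neurons, rose (1.77, SE 0.43, adjusted p = 0.0217). Cdh16 reached 1 FPKM only in hindstomach controls and the library labelled knockout 5. Cdh2 lost its call under 5 of 17 settings, which were the GC slope, the replicate block, and leaving out hindstomach control 2, hindstomach control 4 or the library labelled knockout 1. Cdh1, the epithelial cadherin, averaged 104 ± 18.0 FPKM in libraries labelled knockout and 157 ± 15.3 FPKM in hindstomach controls and was not called (-0.60, adjusted p = 0.164).

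Among transcription factors known to act on brush border genes, Hnf4a fell in the knockout comparison. Hnf4a had 4.93, 5.84, 3.74, 6.89 and 13.2 FPKM in the libraries labelled knockout 1 to 5, against 20.8, 18.6 and 24.0 FPKM in hindstomach controls (-1.58, SE 0.30, limma adjusted p = 0.00757). The groups did not overlap, libraries 4 and 5 were the highest of the 5, and the call was lost without hindstomach control 4 or relative to Epcam. Hnf4g was not called in the knockout comparison (-0.23, adjusted p = 0.316) and rose in the forestomach, at 2.21, 1.88 and 1.18 FPKM in libraries labelled knock-in, against 0.0092, 0.150 and 0.122 FPKM in forestomach controls (1.32, SE 0.20, adjusted p = 0.00435). That call of Hnf4g was lost relative to Epcam and when the forestomach groups were fitted alone. Srf and Klf5 were not called in either comparison, and Cdx1 and Cdx2 did not pass the filter.

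By pattern over the 14 libraries, the genes nearest to each of the 8 were found as those with the smallest root mean square difference of centred log2(FPKM + 1). Nearest to Vil1 were Ptprn2 (0.186) and Fgfr4 (0.198), where the median over all genes was 1.20. Nearest to Myo1a were Cfb (0.178) and Nr1i2 (0.222), and nearest to Espn were Rgs11 (0.205) and Slc37a1 (0.244). For Anpep they were Msln (0.342) and Vsig2 (0.377), and for Ezr Traf3ip2 (0.180) and Apol7a (0.184). Cobl had Zfp14 (0.0949) and Dstyk (0.112), and Cdh17 had AK129341 (0.174) and Enah (0.190). Prom1 had Sema3c (0.208) and Ptprk (0.226). Sema3c averaged 75.0 FPKM in libraries labelled knockout, 67.1 in hindstomach controls, 38.2 in libraries labelled knock-in and 15.7 in forestomach controls. Among the 8 genes the closest pair was Vil1 and Myo1a (0.322), followed by Myo1a and Anpep (0.407) and by Cobl and Cdh17 (0.409). Both genes of the last pair varied little, as their root mean square distance from a flat line was 0.327 for Cobl and 0.444 for Cdh17, against 1.20 for Vil1, 1.41 for Myo1a and 1.63 for Anpep.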

How the data were processed

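The authors deposited 1 table of FPKM values with a column for each of the 14 libraries, per the file headers. RNA came off NucleoSpin columns and went into the NEBNext Ultra II Directional library kit, per the labels' protocols. The genome build was mm9, per the submitters' processing notes. The aligner, the program behind the FPKM values, the annotation and the way fragments were split between paralogs are not stated in any source used here. FPKM hold no counts, so the depth is unknown. The libraries summed to 242910 to 487908 FPKM, and 9248 to 12387 genes per library reached 1 FPKM.

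From the 22906 rows, 108 exact duplicates were dropped. Differences were fitted as log2(FPKM + 1), a scale that understates changes of low genes, with limma 3.58.1 in R 4.3.3, 1 mean per group over all 14 libraries and eBayes with trend and robust options (statmod 1.5.0). P-values were adjusted by Benjamini-Hochberg over the 12694 genes with FPKM of at least 1 in at least 3 libraries, and genes were called at an adjusted p under 0.05. The fit was tested on simulated data. Single genes were also compared by two-sided exact permutation in SciPy 1.17.1. Confidence intervals of differences are limma's 95% intervals.

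The genes and lists were chosen with earlier results of these data known. The genes named are the 8, their tested paralogs, up to 3 called genes of each role list with the smallest adjusted p, the tested regulators, Gata4 and Epcam. Some items that this rule names are not reported here. Cdhr2, Slc9a3, Eps8l2 and Baiap2l2 fall outside this rule and were chosen with their values in view. GC content came from GENCODE transcripts of GRCm38, for 99.32% of tested genes. Its slope was computed from the same libraries, so a fit with it is no independent check. Alternatives were a pseudocount of 0.1, no filter, rescaling, quantile normalization, the compared groups alone, eBayes without those options, the GC slope, a replicate block, each library left out and, added after seeing the data, levels relative to Epcam.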

Additional observations from a re-analysis of the deposited data

Results flagged for a closer look

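Among the 5 libraries labelled knockout, each gene's highest and lowest library was compared with the rest, which made 16 checks, and chance flags about 1 in 20 groups. Espn stood out for its highest library, the library labelled knockout 5 at 2.06 FPKM, where the others had 0 to 0.138 FPKM, and the gap to the nearest library was 0.884 of the whole range on the log2 scale. Cobl stood out for its highest library, the library labelled knockout 3 at 4.25 FPKM, where the others had 3.68 to 3.79 FPKM, with a gap of 0.792 of the range. Both genes kept groups that did not overlap with hindstomach controls.

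The knockout comparison and the knock-in comparison, both taken by label, differed by limma's test of the difference for 5 genes. Of these 1 was higher and 4 lower, where 7.62% and 3.19% of all tested genes were. The call of Vil1 was lost under 15 of 21 alternative settings, that of Anpep under 4 and that of Myo1a under 3. Gata4 was not higher in the libraries labelled knock-in. The difference, knockout comparison minus knock-in comparison on the log2 scale, was -1.86 for Vil1, -2.37 for Myo1a, -2.58 for Anpep, -1.08 for Prom1 and 1.11 for Cobl. Vil1, Myo1a and Anpep fell in the knockout comparison and were not called in the knock-in comparison, Cobl rose in the knockout comparison and was not called in the knock-in comparison, and Prom1 was not called in the knockout comparison and rose in the knock-in comparison.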

How the results depend on the processing

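In the knockout comparison (2 of the 8 genes higher, 5 lower, 1680 of all genes called), leaving out 1 library at a time gave 0 to 2 higher, 3 to 5 lower and 267 to 4124 calls, the lowest 2 counts without hindstomach control 4 (267) or 2 (337) and the highest without the library labelled knockout 5. In the knock-in comparison (1 higher, 0 lower, 742 calls) the calls ranged over 118 to 7015, with 7015 without forestomach control 5, 3283 without the library labelled knock-in 4 and 118 to 126 without forestomach control 2 or the libraries labelled knock-in 1 or 2. Between control regions (5 higher, 1 lower, 2583 calls) calls ranged over 1532, without hindstomach control 4, to 2680. For libraries labelled knockout against forestomach controls (2 higher, 0 lower, 1764 calls) it gave 1 to 3 higher and 793 (without forestomach control 2) to 4359 calls (without forestomach control 5). For the difference between the knockout and knock-in comparisons (1 higher, 4 lower, 1372 calls) it gave 1 to 5 lower and 621 to 1712 calls, the lowest of each without hindstomach control 4.

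Uncalled values that changed sign were Cobl for libraries labelled knockout against forestomach controls (-0.016 to 0.036) and, in the knock-in comparison, Ezr (-0.24 to 0.27) and Myo1a (-0.21 to 0.014). No called value of the 8 genes changed sign when a library was left out.

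A pseudocount of 0.1 left 2 genes lower for the difference between the knockout and knock-in comparisons. Rescaling to a common sum gave 4 genes higher for libraries labelled knockout against forestomach controls, and turned the uncalled values of Prom1 in the knockout comparison (0.20) and Myo1a in the knock-in comparison (0.0069). Quantile normalization gave 1 gene higher in the knockout comparison, 0 higher for the difference between the knockout and knock-in comparisons, 489 calls in the knock-in comparison and 860 for the difference. It turned the uncalled values of Prom1 in the knockout comparison (0.041), of Myo1a (0.20), Cobl (0.33) and Anpep (0.070) in the knock-in comparison, and of Cdh17 for the difference (-0.0014).

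Fitting the compared groups alone gave 4991 calls in the knockout comparison, 0 calls and 0 of the 8 genes in the knock-in comparison, 1431 calls and 0 genes lower between control regions, and 889 calls and 1 gene higher for libraries labelled knockout against forestomach controls. With the GC slope as a covariate 1 gene was higher in the knockout comparison, 5325 genes were called between regions, 4604 for libraries labelled knockout against forestomach controls with 5 of the 8 genes higher, and 3433 for the difference. Uncalled values turned for Myo1a (0.60), Espn (0.052) and Anpep (0.36) in the knock-in comparison and for Espn (0.14) for libraries labelled knockout against forestomach controls.

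Relative to Epcam 3 genes were lower in the knockout comparison, with 836 calls. In the knock-in comparison 0 were higher and 5 lower, with 10751 calls, and 2 were lower between regions, with 6028 calls. For libraries labelled knockout against forestomach controls 1 was higher and 1 lower, and for the difference 2 were higher and 0 lower, with 8303 calls. This setting subtracts 1 gene's values and so moves all genes together. It turned Prom1 in the knockout comparison (0.30), Vil1 (-1.02), Ezr (-1.05), Cdh17 (-0.62) and Prom1 (-0.12) in the knock-in comparison, Ezr between regions (-0.46), Cobl (-0.65) and Anpep (-0.10) for libraries labelled knockout against forestomach controls, and Ezr (0.43) and Prom1 (0.42) for the difference.

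The replicate numbers did not pair the libraries, since deviations of same-numbered libraries correlated at 0.033, 0.059 and -0.255 in the knockout comparison and at 0.284 and -0.145 between regions. A replicate block on libraries with shared numbers gave 5415 calls with Prom1 at 0.0029 in the knockout comparison, 0 genes lower between regions, and 0 calls and 0 genes higher for libraries labelled knockout against forestomach controls, where the correlations were -0.575, -0.657 and -0.871. No paired analysis was possible for the knock-in comparison and the difference because those groups share 1 number. The remaining 185 counts stayed within 1.5 times their first value, and 566 of the values of single genes kept direction and side of the threshold. Of the other microvillus genes, relatives and regulators, 4 of 18 calls held under every setting in the knockout comparison, 0 of 8 in the knock-in comparison and 10 of 27 between regions. Apart from settings that change which libraries enter, the cause of these shifts was not tested.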
